A study of Mus musculus with 30 samples.

Results

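The 10 genes described here belong to the antioxidant response governed by the transcription factor NRF2: Nfe2l2, which encodes NRF2 itself, its inhibitor Keap1, and the targets Hmox1, Nqo1, Gclc, Gclm, Srxn1, Txnrd1, Gsr and Slc7a11. They were found by matching the Ensembl identifiers of the deposited count table, which lists 78334 genes, to mouse gene symbols, and all 10 were matched and passed the filter on low counts in both sequencing runs. The rule itself uses no measured value, but the genes were proposed with earlier results of these data known. RNA was sequenced from 30 libraries in 9 groups of cultured cells that the labels call aortic smooth muscle cells of the mouse, in which the long noncoding RNA CASC15 was knocked down or overexpressed and to which PDGF-BB, a growth factor, or angiotensin II, a vasoactive peptide, was added.

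In sequencing run 2, no library had a treatment. It held 2 libraries with a control GapmeR, an antisense oligonucleotide that directs RNase H to the RNA it binds, 2 labelled as total CASC15 knockdown, 3 with the overexpression control and 3 with overexpressed total CASC15. In run 3, each of 5 groups held 4 libraries: knockdown control untreated, with angiotensin II (10 ng/ml) or with PDGF-BB (between 10 and 30 ng/ml, per the labels), and long CASC15 knockdown untreated or with angiotensin II. Treatment lasted 24 h, every culture had 48 h without serum in a medium with selenite, and every transfection lasted at least 24 h. PDGF-BB was therefore measured in control cells only. The labels also give each library a batch, P16 to P19. Each batch holds at most 1 library per group. The labels do not say whether a batch is an animal, a culture or a passage, so the p-values describe the spread between these libraries, which may be in part technical. In bulk RNA, a lower share of cells that express a gene and less of its RNA per cell cannot be told apart.

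Under resting conditions KEAP1 binds NRF2 and brings it to a cullin ubiquitin ligase for degradation. Oxidants and electrophiles modify cysteines of KEAP1, NRF2 then accumulates, and with small MAF proteins it binds antioxidant response elements near its target genes. The targets divide into enzymes of glutathione synthesis and reduction, of thioredoxin and peroxiredoxin repair, and of quinone and heme metabolism. In vascular smooth muscle, the pathway is known for limiting oxidative stress.

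NRF2 activity is mostly set by protein stability, which RNA levels do not report, so the binding sequence is shown first as the feature that defines a target. The core of the antioxidant response element, TGACNNNGC, was searched on both strands of the RefSeq promoter windows (GRCm38.p6), which run from 250 bases before to 50 bases after a gene's start. Of the 10 genes, 7 have a window there, which leaves out Hmox1, Gclc and Gsr. The core was found in 4 of these 7. It also occurs in 12.4% of all 32851 windows and in 14% of the 27025 genes with a window. The longer form TGACTCAGC, which holds the same core, was found in none of the 7 and in 0.454% of all windows. The 4 matches are printed 5′ to 3′ on the strand that carries the core, which is in capitals, with 10 bases on each side.

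Nfe2l2: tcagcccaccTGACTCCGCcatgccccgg
Srxn1: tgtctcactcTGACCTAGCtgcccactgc
Gclm: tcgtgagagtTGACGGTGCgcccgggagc
Txnrd1: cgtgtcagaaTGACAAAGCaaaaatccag

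The Nfe2l2 stretch lies at chr2:75704885-75704913 on the minus strand, with its core at -240 to -232 relative to the start. That of Srxn1 lies at chr2:152105542-152105570 on the minus strand, 28 to 36 bases past the start and opposite to the gene's direction. In Gclm it lies at chr3:122245413-122245441 on the minus strand, at -134 to -126 and opposite to the gene. The Txnrd1 stretch lies at chr10:82859104-82859132 on the minus strand, at -92 to -84 in 1 of 3 windows of the gene, also opposite to it. The start used for the Nfe2l2 window was not found among its GENCODE M21 transcripts. These are matches of letters in a window of 300 bases and were not measured as sites of binding.

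Levels per gene are given as CPM, the count scaled to library size with TMM factors, and compared between genes only per kb of the longest annotated transcript. The values, and the order of neighbours, depend on the length chosen. All exons joined span 7086 bases against 3622 for Txnrd1, 3796 against 2475 for Nfe2l2 and 4693 against 3614 for Keap1. In untreated run 3 control cells, Txnrd1, the cytosolic selenoenzyme that reduces thioredoxin, had the highest level, 113 ± 10.5 CPM per kb (SD, n = 4). Nfe2l2 followed at 67.4 ± 6.03 and Gclc, the catalytic subunit of the enzyme that makes the glutathione precursor, at 43.3 ± 5.01 CPM per kb. Next came Hmox1 (heme oxygenase 1, which breaks down heme) at 29 CPM per kb, Gsr (glutathione reductase) at 24.9, Nqo1 (a quinone reductase) at 19.7, Keap1 at 15.6 and Srxn1 (sulfiredoxin, which restores overoxidised peroxiredoxins) at 15. From Hmox1 down to Srxn1, each gene's range over the 4 libraries overlapped that of the next, so neighbours in this stretch are not separated by more than the spread, while Hmox1 (26.8 to 32.8) and Gsr (22.5 to 28.4) lay wholly above Keap1 (15.2 to 16) and Srxn1 (12.3 to 20). Gclm, the modifier subunit that partners Gclc, was lower at 5.84 ± 1.08 CPM per kb. Slc7a11, the cystine importer that supplies cysteine for glutathione, had the lowest level, 1.84 ± 0.449 CPM per kb. Across the group means of a run, Slc7a11 also varied most, 5.82-fold between its highest and lowest group, and Nfe2l2 least, 1.46-fold. The expected counts behind the values ran from 120 to 13589 for a gene in a library.

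Run 2 libraries held 18007199 to 21881959 counts, run 3 libraries 15771490 to 30362047. The target was read from 2610307P16Rik, a gene that no table used here pairs with CASC15. It averaged 7.02 CPM with the control GapmeR and 9.01 CPM in the libraries labelled total knockdown, so its level goes against that label. It averaged 716 CPM in overexpression against 6.42 CPM in the plasmid control, and long knockdown held 51.9% of its control level untreated and 57.8% under angiotensin II. Among smooth muscle markers, Acta2 (96.5 to 441 CPM over all libraries) and Cald1 (417 to 855 CPM) were abundant. Smtn had 42.2 to 103 CPM. Tagln (at most 3.45 CPM), Myh11 (6.67), Cnn1 (0.224), Myocd (3.97), Lmod1 (1.77) and Des (2.33) were near 0. The fibroblast markers summed to 2640 to 4293 CPM, most of it Col1a1 (1275 to 3635) and Dcn (563 to 2180). Pdgfra (1.83 to 65.7) and Pi16 (2.7 to 77.5) were lower, and Lum (at most 5.17) and Dpt (at most 0.948) were near 0. Over all libraries the 7 leukocyte markers summed to 8.64 to 31.9 CPM, most of it Cd14 (7.85 to 21.1) and Cd68 (at most 15.9), with Ptprc (at most 0.0998), Adgre1 and Cd3e at or near 0. The 6 endothelial markers summed to 0.356 to 10.1 CPM, with Vwf at most 6.14 and Cdh5 at most 0.0633. The 4 epithelial markers summed to 35.4 to 199 CPM, nearly all from Cdh1 (35.1 to 195), with Epcam at most 0.441.

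PDGF-BB raised 7 of the 10 genes in control cells and lowered none. The background was 43.6% of the 15103 genes tested, 23.6% higher and 20.0% lower, at an adjusted p under 0.05 (edgeR's quasi-likelihood test, p-values adjusted over all genes after Benjamini-Hochberg, as for every adjusted p below). The median log2 fold change (log2FC) was 0.55 over the 10 genes and -0.02 over all genes tested. The rise covered cystine import (Slc7a11), both subunits of glutathione synthesis (Gclc, Gclm), glutathione reduction (Gsr), quinone reduction (Nqo1) and the NRF2 and KEAP1 transcripts themselves.

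Slc7a11 stood at 19.4, 13.8, 13.1 and 21.5 CPM in the untreated libraries of P16, P17, P18 and P19, and at 103, 93.7, 89.9 and 101 CPM with PDGF-BB. Every treated library was above every untreated one, and the means were 16.9 ± 4.16 and 97 ± 6.18 CPM (SD, n = 4 each). The log2FC was 2.51 (SE 0.417), a 5.69-fold rise to 569% of the control level, with an adjusted p of 0.000131 by edgeR's quasi-likelihood test.

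Gclc moved from 141, 132, 148 and 172 CPM untreated to 279, 282, 282 and 247 CPM with PDGF-BB in the same batch order. Those values did not overlap, and the log2FC was 0.88 (SE 0.0815, adjusted p 4.56e-08 by edgeR). Its partner Gclm went from 32.4, 27.2, 29.9 and 41.1 CPM to 46, 39.3, 44.9 and 62.5 CPM. Gclm's groups overlapped because the untreated P19 library lay above the treated P17 library, yet treated exceeded untreated within each of the 4 batches, with a log2FC of 0.56 (SE 0.163, adjusted p 0.00943 by edgeR).

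Gsr rose from 64.6, 60.1, 66 and 75.9 CPM to 117, 107, 110 and 149 CPM, a log2FC of 0.86 (SE 0.141, adjusted p 6.69e-05 by edgeR). Nqo1 rose from 27.5, 27.3, 23.4 and 44.4 CPM to 60.3, 58.9, 61.9 and 88 CPM, a log2FC of 1.13 (SE 0.343, adjusted p 0.0134 by edgeR). In both genes all treated libraries lay above all untreated ones, and P19 was the highest library of each group. Keap1 rose from a range of 54.8 to 58 CPM to one of 75 to 84.6 CPM (log2FC 0.47, adjusted p 8.64e-06 by edgeR). Nfe2l2 rose by less, from between 148 and 183 CPM to between 190 and 213 CPM (log2FC 0.24, adjusted p 0.00657 by edgeR). The ranges of both were apart.

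The other 3 genes were not called. Txnrd1 was level, with 409 ± 38.2 CPM untreated and 416 ± 34.9 CPM with PDGF-BB (SD, n = 4 each), a log2 difference of 0.02 (95% interval -0.15 to 0.19 from the SE; adjusted p 0.843 by edgeR). Srxn1 had 39.3, 38.9, 34.7 and 56.1 CPM untreated and 57.5, 51.2, 49.5 and 87.6 CPM treated, higher in 4 of 4 batches but overlapping between the groups (log2FC 0.54, adjusted p 0.108 by edgeR). Hmox1 was the only 1 of the 10 with a negative value, 42, 44.5, 44.2 and 51.4 CPM against 31.9, 35.2, 32.8 and 39.2 CPM (log2FC -0.39, adjusted p 0.0889 by edgeR), although its groups did not overlap. With the batch as a block, Srxn1 was called higher (adjusted p 6.23e-08 by edgeR) and Hmox1 lower (adjusted p 0.00274 by edgeR), against a background of 54.5%, with 28.3% higher and 26.2% lower. Without the PDGF-BB library of P19, 4 genes remained past the threshold, and Nfe2l2 (adjusted p 0.0676 by edgeR), Nqo1 (0.0571) and Gclm (0.0723) did not; Gclm also missed it without the untreated P17 library (0.051). Groups did not overlap in 7 of the 10, against 40.6% of all genes. The proliferation markers Mki67, Top2a, Ccnb1 and Cdk1 moved along with the treatment, summing to 1425 to 1490 CPM with PDGF-BB and 92.9 to 203 CPM without. The 9 smooth muscle markers summed to 701 to 811 CPM with and 905 to 1131 CPM without it, the epithelial markers to 157 to 199 and 97.6 to 129 CPM, and the endothelial markers to 0.356 to 1.05 and 1.25 to 2.76 CPM. The part of these markers in the results was not tested.

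**Figure D1:**
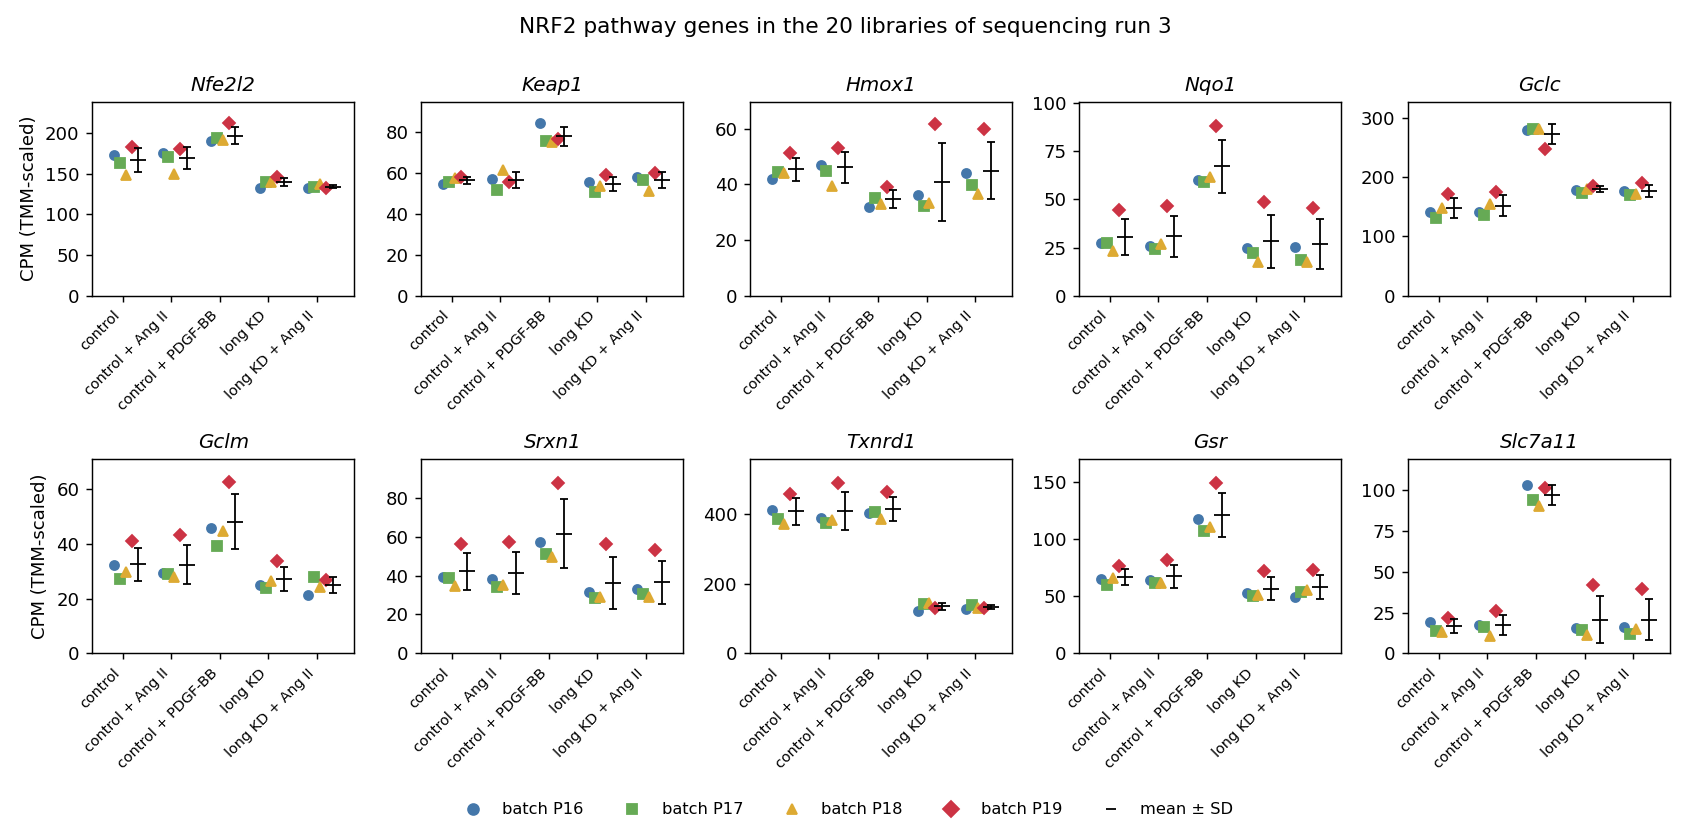
CPM (vertical axes, from 0) of the 10 genes in each library of run 3 by group, with batches P16 to P19 as colours and shapes and black bars for the mean ± SD of 4 libraries. The PDGF-BB libraries stand highest for Slc7a11, at 89.9 to 103 CPM, and the long knockdown (KD) libraries lowest for Txnrd1, at 121 to 144 CPM.

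Around the 10 genes, PDGF-BB raised 13 and lowered 3 of the 27 other NRF2 targets tested (median log2FC 0.37). With the batch as a block it raised 18 and lowered 4. Over all genes, 23.6% rose and 20.0% fell, or 28.3% and 26.2% with the block. G6pdx, the first enzyme of the NADPH-producing pentose phosphate pathway, rose from 46.3 ± 7.1 to 119 ± 7.31 CPM (± SD, n = 4; log2FC 1.36, adjusted p 2.16e-07 by edgeR). Cbr1, a carbonyl reductase, fell from 11.1 to 6.97 CPM (log2FC -0.67, adjusted p 0.000733 by edgeR). Of 23 glutathione and thioredoxin genes tested outside the 10, 10 rose and none fell (median 0.28), while with the block 17 were higher and 2 lower. The 2, named after their values were seen, were Prdx6 (log2FC -0.20, adjusted p 0.00462 with the block by edgeR) and Glrx2 (-0.18, 0.0373). The largest rise among them was that of Prdx4, a peroxiredoxin of the endoplasmic reticulum, from 19 to 40.5 CPM (log2FC 1.09, adjusted p 1.55e-06 by edgeR).

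Of the 13 NRF2 partners and regulators, 3 rose and 4 fell with PDGF-BB (3 and 5 with the block). For this list and those below, the share of all genes called was 43.6%, or 54.5% with the block. The counts of these small lists are therefore not read as particular to them. Bach1, a repressor that competes with NRF2 for its elements and is known for holding down Hmox1, fell from 107 ± 2.89 to 77.8 ± 2.75 CPM (± SD, n = 4; log2FC -0.46, adjusted p 2.26e-07 by edgeR). Syvn1, a ubiquitin ligase of the endoplasmic reticulum that can target NRF2, rose from 51.1 to 64.5 CPM (log2FC 0.33, adjusted p 0.00103 by edgeR). In heme and iron handling 4 of 11 genes rose and 1 fell, also with the block (median -0.02). Tfrc, the transferrin receptor, rose from 24 to 114 CPM (log2FC 2.24, adjusted p 7.05e-09 by edgeR), and Slc40a1, the iron exporter ferroportin, fell from 15 to 5.4 CPM (log2FC -1.47, adjusted p 6.53e-06 by edgeR). Of the 4 genes of superoxide and peroxide removal 2 rose and none fell, with 1 lower with the block. The larger rise was that of the extracellular superoxide dismutase Sod3, from 19.7 to 49.4 CPM (log2FC 1.33, adjusted p 0.000509 by edgeR). Among 6 superoxide source genes tested, 1 rose and 1 fell (1 and 3 with the block). Rac1, a GTPase that activates NADPH oxidases, rose from 373 to 467 CPM (log2FC 0.32, adjusted p 0.000226 by edgeR). Nox4, the NADPH oxidase of resting smooth muscle, fell from 14.7 to 8.79 CPM (log2FC -0.74, adjusted p 0.00544 by edgeR).

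With knockdown of long CASC15, Txnrd1 stood at 32.9% of its control level. Whether this came from loss of the target RNA or from another effect of the knockdown was not tested. In untreated cells 1 gene rose (Gclc) and 2 fell (Txnrd1 and Nfe2l2), where 25.0% of all genes were called, 12.3% higher and 12.8% lower. Both the batch as a block and leaving out the P19 libraries called more of the 10, as given below by gene. The medians were -0.19 over the 10 genes and 0.02 over all genes. This comparison, that of PDGF-BB and that of angiotensin II in control cells use the same untreated control libraries.

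Txnrd1 stood at 414, 388, 373 and 460 CPM in the control libraries of P16, P17, P18 and P19 and at 121, 143, 144 and 130 CPM in the knockdown libraries. The highest knockdown library lay far below the lowest control, and the means were 409 ± 38.2 and 135 ± 10.8 CPM (SD, n = 4 each). The log2FC was -1.60 (SE 0.0892), with values of -1.82 to -1.37 within the 4 batches. Its adjusted p of 4e-10 by edgeR's quasi-likelihood test came from the 3rd smallest p of the 15103 genes tested. Under angiotensin II, against controls of their own, the levels were 391, 376, 384 and 490 CPM in control and 128, 140, 132 and 132 CPM in knockdown cells. There the knockdown level was 32.4% of control (log2FC -1.63, SE 0.0893, adjusted p 3.09e-10 by edgeR), again the 3rd smallest p. The gene read as the target, 2610307P16Rik, had log2FC of -0.95 and -0.79 in these comparisons. With PDGF-BB, where Txnrd1 was level, the same gene also fell, to 65.2% of the untreated level (log2FC -0.62, adjusted p 0.0101 by edgeR).

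The other thioredoxin reductases moved less in value. Txnrd2, the mitochondrial enzyme, went from 10.4, 13.1, 9.72 and 11.2 CPM to 8.08, 8.62, 8.48 and 8.7 CPM in untreated cells (log2FC -0.39, adjusted p 0.0114 by edgeR). Under angiotensin II its log2FC was -0.29 (adjusted p 0.0567 by edgeR, and 0.0284 with the batch as a block). Txnrd3, the thioredoxin-glutathione reductase of testis, was not called in either, at 18.6 CPM in control and 18.8 CPM in knockdown cells without treatment (log2FC 0.01, SE 0.113).

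**Figure D2:**
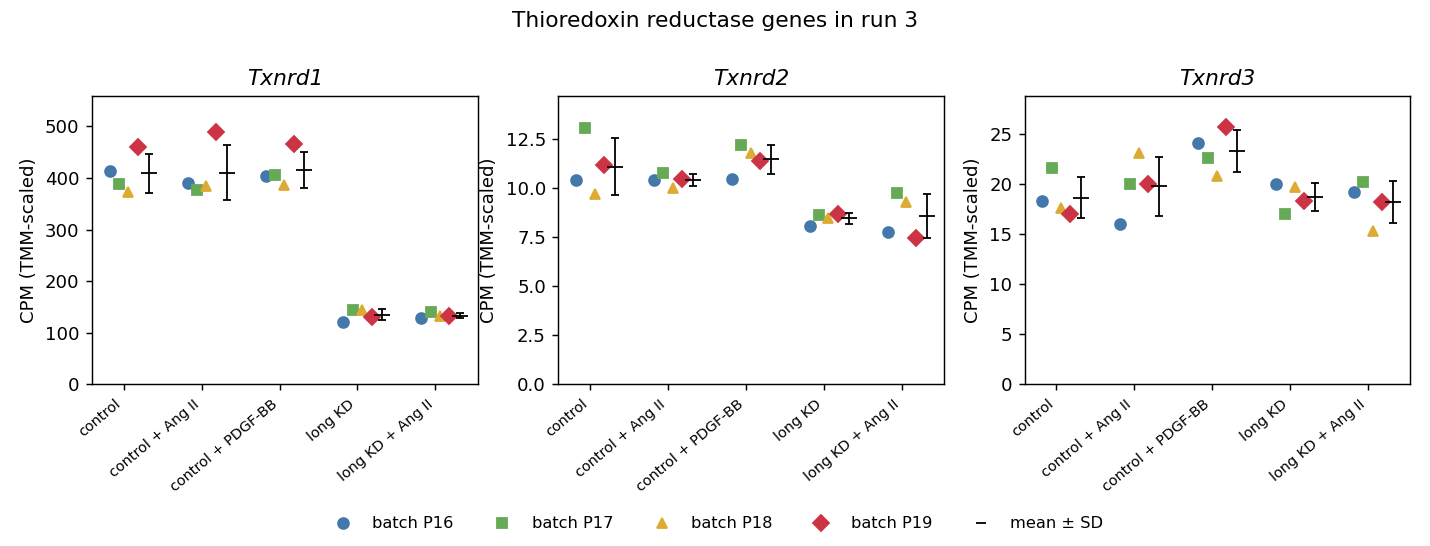
CPM (vertical axes, from 0) of the 3 thioredoxin reductase genes in each library of run 3, by group and batch, with the mean ± SD of 4 libraries in black. Txnrd1 is 121 to 144 CPM in all 8 long knockdown (KD) libraries and 373 to 490 CPM in the 12 libraries without knockdown, while the Txnrd3 points of knockdown and control overlap.

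Nfe2l2 fell from 173, 163, 148 and 183 CPM in control to 133, 140, 140 and 146 CPM in knockdown cells (log2FC -0.26, adjusted p 0.0069 by edgeR), with the groups apart by the narrow gap between 146 and 148 CPM. Under angiotensin II it fell from 176, 170, 150 and 181 CPM to 133, 134, 137 and 133 CPM (log2FC -0.33, adjusted p 0.000943 by edgeR). Gclc rose from 141, 132, 148 and 172 CPM to 179, 174, 180 and 186 CPM (log2FC 0.28, adjusted p 0.015 by edgeR). The rise of Gclc missed the threshold without the control library of P16 (adjusted p 0.0595 by edgeR), P17 (0.0756) or P18 (0.0592). Under angiotensin II, Gclc's log2FC was 0.22 (adjusted p 0.0473 by edgeR), and it missed the threshold when any 1 of 7 of the 8 libraries was left out, with DESeq2 (adjusted p 0.0621) and in other settings, 12 of 15 in all.

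Keap1, Hmox1, Nqo1, Gclm, Srxn1, Gsr and Slc7a11 were not called in either long knockdown comparison. Slc7a11, for example, had 15.5, 14.2, 11.1 and 42 CPM in untreated knockdown cells, the last in P19, against 13.1 to 21.5 CPM in control (log2FC 0.28, SE 0.411, adjusted p 0.656 by edgeR). Its sign turned without the P19 knockdown library (log2FC -0.32). Srxn1 had 31.7, 28.5, 28.8 and 56.3 CPM against 34.7 to 56.1 CPM in control, lower in 3 of 4 batches. With the batch as a block, 1 gene was called higher and 5 lower in each comparison, against 40.6% of all genes untreated (20.0% higher, 20.6% lower) and 41.3% under angiotensin II (20.4% higher, 20.9% lower). The added genes were Gclm, Srxn1 and Gsr, with log2FC of -0.26, -0.25 and -0.25 untreated (adjusted p 0.0202, 0.00226 and 0.000618 by edgeR) and -0.35, -0.19 and -0.22 under angiotensin II (0.00282, 0.0182 and 0.00197).

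Leaving out the knockdown library of P19 called 5 genes in untreated cells, with Hmox1 (log2FC -0.43, adjusted p 0.0232 by edgeR) and Gsr (-0.38, 0.0446) added. For fits without 1 or all P19 libraries, the share of all genes called is not given here. The counts of called genes are therefore not set against it. Without every P19 library, 7 genes were called untreated and 6 under angiotensin II. Both settings kept Txnrd1, Nfe2l2 and Gclc and added Gclm (adjusted p 0.0263 and 0.0431 by edgeR), Srxn1 (0.000948 and 0.0296) and Gsr (0.000173 and 0.0021), and untreated also Hmox1 (0.000582). Proliferation markers summed to 27.9 to 32.9 CPM in the untreated knockdown libraries of P16 to P18 and to 128 CPM in that of P19, against 92.9 to 203 CPM in control. The epithelial markers, mainly Cdh1, summed to 36.6 to 69.9 CPM in untreated knockdown cells and 97.6 to 129 CPM in control, and to 35.4 to 64.5 and 104 to 128 CPM under angiotensin II. There the proliferation sums were 26.4 to 116 CPM in knockdown and 104 to 233 CPM in control cells, and the endothelial sums 2.29 to 4.21 and 0.925 to 2.28 CPM. Fibroblast markers were lower in knockdown in 4 of 4 batches of each comparison, with sums of 3167 to 3563 against 3444 to 3938 CPM untreated and 3066 to 3610 against 3591 to 3906 CPM under angiotensin II. Smooth muscle sums were lower in 3 of 4 batches untreated (816 to 983 against 905 to 1131 CPM) and in 4 of 4 under angiotensin II (840 to 1000 against 903 to 1093 CPM). The part of these markers in the changes was not tested. Groups did not overlap in 3 of the 10 in each comparison, against 24.5% and 24.8% of all genes.

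Under angiotensin II, where 26.7% of all genes were called (13.4% higher, 13.3% lower), 1 of the 10 rose and 2 fell, as given above (median -0.19 against 0.01 over all genes). Among 27 other NRF2 targets tested, 4 rose and 10 fell in untreated knockdown cells (median -0.31), and 4 rose and 12 fell under angiotensin II (median -0.34). With the batch as a block, 6 were higher and 16 lower untreated, and 5 and 18 under angiotensin II. Over all genes, 12.3% rose and 12.8% fell untreated. With the block these shares were 20.0% and 20.6%, or 20.4% and 20.9% under angiotensin II. Gsta4, a glutathione transferase that clears lipid aldehydes, fell from 214 ± 34.3 to 112 ± 14 CPM (± SD, n = 4; log2FC -0.93, adjusted p 7.3e-05 by edgeR) untreated and by 1.02 on the log2 scale under angiotensin II (adjusted p 2.68e-05 by edgeR). Gstm1 rose from 289 to 418 CPM untreated (log2FC 0.53, adjusted p 0.000114 by edgeR), though reads could be split with its near-identical neighbours. G6pdx rose from 46.4 to 66 CPM under angiotensin II (log2FC 0.51, adjusted p 0.00985 by edgeR).

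Of 23 glutathione and thioredoxin genes, 1 rose and 4 fell in each knockdown comparison (median -0.20 in both). Over all genes, 12.3% rose and 12.8% fell untreated, and 13.4% and 13.3% under angiotensin II. With the block, 2 of the 23 were higher and 11 lower untreated, and 2 and 9 under angiotensin II, against the block shares given above. The 1 that rose without the block was Prdx2, a peroxiredoxin that passes peroxide to thioredoxin, from 107 ± 6.37 to 218 ± 21.3 CPM untreated (± SD, n = 4; log2FC 1.02, adjusted p 7.68e-09 by edgeR) and from 105 to 218 CPM under angiotensin II (log2FC 1.06, adjusted p 5.04e-09 by edgeR). The largest fall was that of Prdx6, another peroxiredoxin, from 198 to 133 CPM untreated (log2FC -0.58, adjusted p 9.54e-05 by edgeR) and from 195 to 131 CPM under angiotensin II (log2FC -0.57, adjusted p 0.000109 by edgeR).

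Of the NRF2 partners and regulators, 2 of 13 rose and 1 fell in each comparison, and with the block 3 and 2 untreated and 2 and 1 under angiotensin II. Here and for the lists below, 25.0% of all genes were called untreated and 26.7% under angiotensin II. With the block these shares were 40.6% and 41.3%. Gsk3b, a kinase that marks NRF2 for degradation without KEAP1, rose from 159 to 217 CPM (log2FC 0.44, adjusted p 9.3e-06 by edgeR) and from 157 to 215 CPM (log2FC 0.46, adjusted p 6.16e-06 by edgeR). Of 11 heme and iron genes, 1 rose in each comparison, 1 fell untreated and 2 fell under angiotensin II, and with the block 2 rose in each and 3 and 5 fell. Slc40a1 rose from 15 to 30.5 CPM untreated (log2FC 1.03, adjusted p 0.000345 by edgeR) and from 14.3 to 31.5 CPM under angiotensin II (log2FC 1.13, adjusted p 0.000152 by edgeR). Abcb6, a transporter of porphyrins, fell from 19.7 to 12.7 CPM and from 20.9 to 14.4 CPM (log2FC -0.63 and -0.53, adjusted p 0.00784 and 0.0219 by edgeR). Sod3, the 1 gene of 4 called in its list in each comparison (with the block also 1 lower under angiotensin II), rose from 19.7 to 52.3 CPM and from 20.9 to 54.1 CPM (log2FC 1.41 and 1.37, adjusted p 0.000682 and 0.000864 by edgeR). Cyba, the membrane subunit shared by several NADPH oxidases, was the 1 of 6 superoxide source genes called in each (with the block also 1 higher under angiotensin II) and fell from 37.2 to 29.2 CPM and from 37.4 to 28.2 CPM (log2FC -0.35 and -0.41, adjusted p 0.0252 and 0.00928 by edgeR).

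No change with angiotensin II was detected in the 10 genes. None was called in control or in long knockdown cells, and none differed between those in its response (interaction term), where 0% of the genes tested were called each time and every adjusted p was 1 by edgeR's quasi-likelihood test. At an unadjusted p under 0.05, edgeR gave 156, 174 and 166 genes over the table for these 3 tests, and none of the 10. Chance alone would give a share of 0.05 of the 15103 genes tested, and these counts lie far below it. The fit without the batch was therefore cautious here, and small changes may have been missed. With the batch as a block, 0% of all genes were called too. DESeq2 called 1, 0 and 2 genes at its adjusted threshold. In control cells Txnrd1 was at 409 ± 38.2 CPM without and 410 ± 53.7 CPM with angiotensin II (SD, n = 4 each; log2 difference 0.01, SE 0.0868). The differences in control cells ran from -0.04 for Srxn1 (SE 0.264) to 0.05 for Slc7a11 (SE 0.416), and in knockdown cells from -0.12 for Gclm (SE 0.167) to 0.14 for Hmox1 (SE 0.18). Precision therefore differed between genes: the SE was 0.0663 for Nfe2l2 and more than 0.3 only for Nqo1 (0.346) and Slc7a11 in control cells.

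**Figure D3:**
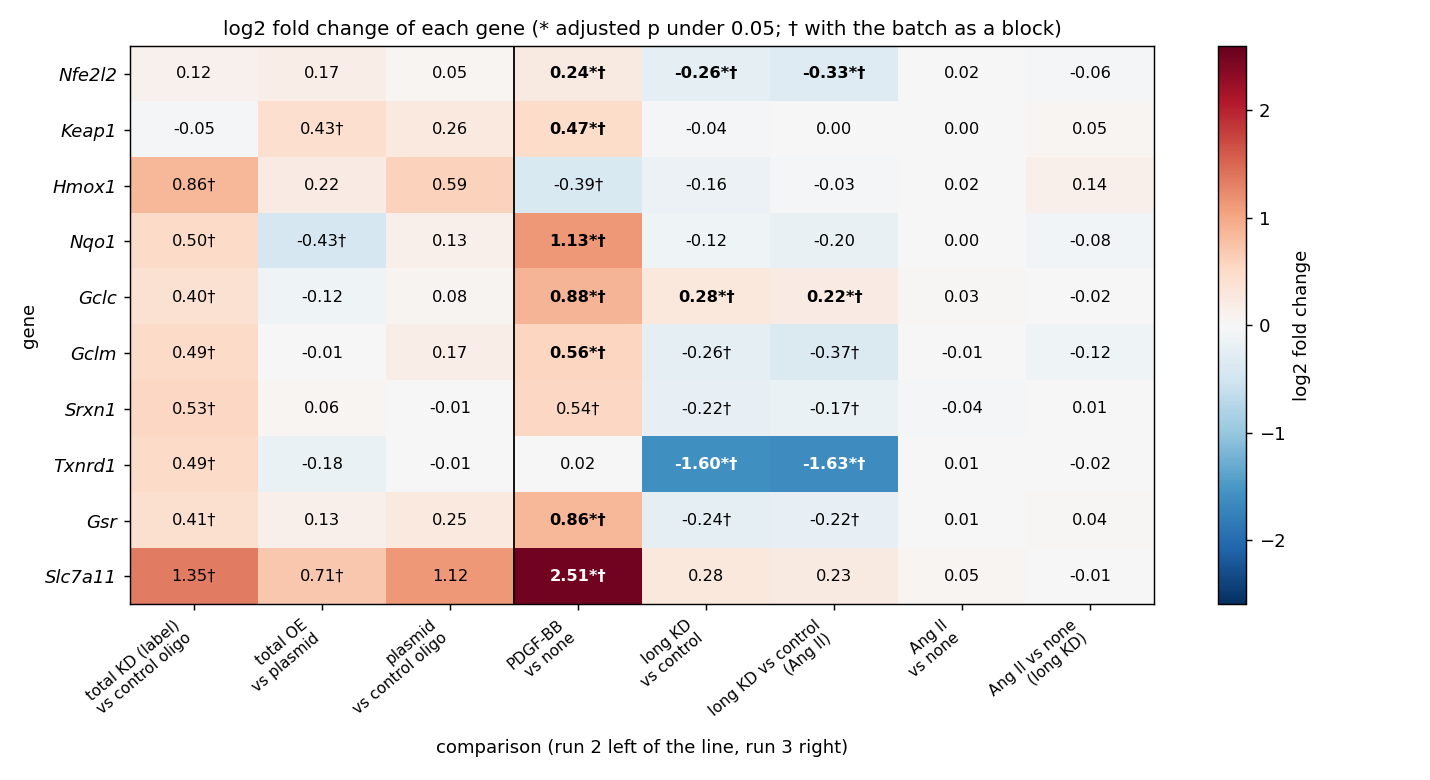
Log2 fold change (colour and number) of the 10 genes (vertical axis) in 8 comparisons (horizontal axis), run 2 left of the line, with a star for an adjusted p under 0.05 and a dagger for the same with the batch as a block. The PDGF-BB column holds 7 stars, the darkest cell being Slc7a11 at 2.51, and the long knockdown (KD) columns hold 3 stars each, with Txnrd1 at -1.60 and -1.63.

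In run 2, none of the 10 genes was called in the libraries labelled total knockdown against the control GapmeR (2.07% of 15350 genes called), but 9 of 10 values were positive and the median was 0.49, against 0.01 over all genes. With 2 libraries a group, 4 of the 10 were under an unadjusted p of 0.05 by edgeR's quasi-likelihood test, DESeq2 called 1, and the groups did not overlap in 8, where 49.3% of all genes did not overlap. With the batch as a block, 8 were called higher and none lower, against 14.4% of all genes called, 8.76% higher and 5.63% lower. Only Nfe2l2 and Keap1 were not among them.

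Hmox1 had 95.4 and 73.4 CPM with the control GapmeR in P17 and P18, and 153 CPM in both libraries labelled total knockdown. Its log2FC was 0.86 (SE 0.231), with an adjusted p of 0.104 by edgeR, 0.000674 with the batch as a block and 0.0243 by DESeq2. Slc7a11 had 5.97 and 5.93 CPM against 12.9 and 17.4 CPM (log2FC 1.35, SE 0.476, adjusted p 0.239 by edgeR and 0.00245 with the block). In both genes each labelled library was above both controls.

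Txnrd1, which fell in long knockdown cells of run 3, had 351 and 254 CPM with the control GapmeR and 464 and 386 CPM in the libraries labelled total knockdown (log2FC 0.49, SE 0.188, adjusted p 0.289 by edgeR and 0.005 with the block). The difference between this comparison and those of run 3 was not tested, since they lie in different runs. Nqo1 had 33.1 and 24.4 CPM against 44.9 and 36.3 CPM, Gclc 113 and 85 against 142 and 120 CPM, and Gsr 74.7 and 58.2 against 96.3 and 80.4 CPM. In each of these genes P17 was above P18 in both groups, and the labelled libraries were above the controls. Their adjusted p with the block was 0.0106, 0.018 and 0.00889 by edgeR. For Gclm and Srxn1 it was 0.0107 and 0.0163, with log2FC of 0.49 and 0.53. The sizes depend on single libraries: with 1 of the 4 left out, log2FC ran from 0.23 to 0.87 for Srxn1, 0.31 to 0.68 for Gclm, 0.20 to 0.61 for Gclc, 0.23 to 0.59 for Gsr, 0.29 to 0.73 for Nqo1 and 0.27 to 0.74 for Txnrd1, and from 0.67 to 1.05 for Hmox1 and 1.12 to 1.54 for Slc7a11.

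Several markers moved along with this label. Proliferation markers summed to 24.8 and 36.1 CPM with the control GapmeR and to 62.4 and 120 CPM in the labelled libraries, and leukocyte markers to between 8.64 and 10.2 CPM and between 27.3 and 31.9 CPM. Epithelial markers summed to 44.2 to 45.1 and 72.5 to 95.4 CPM, endothelial markers to 2.81 to 3.9 and 6.02 to 10.1 CPM, smooth muscle markers to 683 to 684 and 686 to 747 CPM, and fibroblast markers to 2943 to 2985 and 2640 to 2768 CPM. The part of these markers in the values was not tested. Gss, glutathione synthetase, was called higher, from 13.1 ± 0.826 to 38.5 ± 7.97 CPM (± SD, n = 2; log2FC 1.55, adjusted p 0.0124 by edgeR), as 1 of 23 glutathione and thioredoxin genes (3 higher and 1 lower with the block). Among 27 other NRF2 targets none was called by edgeR (6 under an unadjusted p of 0.05), while DESeq2 called 1 higher and the block fit 6 higher and 1 lower. Over all genes, edgeR called 2.07%, and 14.4% with the block. Ncf1, a subunit of the phagocyte NADPH oxidase, averaged 0.0247 CPM with the control GapmeR and 6 CPM in the labelled libraries, and Duox1, which makes hydrogen peroxide, averaged 0.119 and 1.79 CPM. Both are named after their values were seen and carry no test here, since genes near 0 in the control pass the filter on low counts only through groups where they are higher.

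With total CASC15 overexpressed, none of the 10 genes was called against the plasmid control (1.65% of all genes called). Of the 10, 2 were under an unadjusted p of 0.05 by edgeR, and DESeq2 called 1, Keap1, at an adjusted p of 0.0338. The shares of all genes for these 2 measures are not given here. Keap1 had 84.9, 99.6 and 96.8 CPM with the control plasmid in P17, P18 and P19 and 117, 135 and 127 CPM in overexpression, without overlap (log2FC 0.43, SE 0.113, adjusted p 0.105 by edgeR and 0.0141 with the batch as a block). Nqo1 had 31, 28.7 and 34.6 CPM against 22.6, 20.4 and 26.9 CPM, also apart (log2FC -0.43, SE 0.16, adjusted p 0.242 by edgeR and 0.00803 with the block). Slc7a11 had 7.75, 13.3 and 17.7 CPM against 10.9, 22.6 and 29.8 CPM, overlapping between groups but higher in 3 of 3 batches (log2FC 0.71, adjusted p 0.419 by edgeR and 0.0174 with the block), with log2FC of 0.37 to 1.02 when 1 library was left out. These 3 were the only calls of the block fit, where 17.7% of all genes were called, 9.40% higher and 8.33% lower. The median over the 10 genes was 0.10.

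In the other lists, overexpression called 1 gene each, both higher, among 4 of superoxide and peroxide removal and 27 other NRF2 targets. It also called 1 higher each among 11 of heme and iron handling and 9 superoxide sources. Over all genes 1.65% were called, and with the block 9.40% were higher and 8.33% lower. None of the 23 glutathione and thioredoxin genes was called by edgeR (3 under an unadjusted p of 0.05), while DESeq2 called 2 and the block fit 5, all higher. None of the 13 partners and regulators was called by edgeR (3 under an unadjusted p of 0.05), while DESeq2 called 1 higher and the block fit 4 higher and 1 lower. Sod2, the mitochondrial superoxide dismutase, rose from 47.1 ± 2.12 to 110 ± 13.1 CPM (± SD, n = 3; log2FC 1.23, adjusted p 0.00121 by edgeR), and the aldehyde dehydrogenase gene Aldh3a1 from 1667 ± 276 to 3688 ± 797 CPM (log2FC 1.15, adjusted p 0.0188 by edgeR). With the block, 2 of the 4 removal genes were higher, 5 of the 27 targets were higher and 3 lower, and 2 of the 11 heme and iron genes were higher and 2 lower. Fth1, the ferritin heavy chain, rose from 2026 to 3248 CPM (log2FC 0.68, adjusted p 0.0401 by edgeR), with reads that its near-identical copies may share. Xdh, a xanthine dehydrogenase that can produce superoxide, rose from 7.83 ± 4.99 to 34.6 ± 7.17 CPM (± SD, log2FC 2.15, adjusted p 0.0468 by edgeR). Its mean with the control GapmeR was 0.492 CPM, so the plasmid control itself lay above that. Proliferation markers summed to 91, 138 and 379 CPM in overexpression and to 47.4, 60.1 and 257 CPM in the plasmid control, in the order P17 to P19. Leukocyte markers summed to 18 to 22 CPM in overexpression and 11.4 to 11.8 CPM in the plasmid control, and epithelial markers to 66.4 to 150 and 44.6 to 64.1 CPM. In the same batch order, smooth muscle sums were 665, 689 and 1051 against 693, 796 and 1215 CPM. Endothelial sums were 3.15, 3.65 and 2.49 against 3.6, 4.9 and 2.55 CPM, and fibroblast sums 2971, 3112 and 4009 against 2739, 2917 and 3997 CPM. The part of these markers was not tested.

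The plasmid control differed from the control GapmeR in none of the 10 genes by adjusted p (1.18% of all genes called). None was called by DESeq2, nor with the block, where 2.99% of all genes were. Of the 10, Hmox1 and Slc7a11 were under an unadjusted p of 0.05 by edgeR, a measure whose share of all genes is not given here. Hmox1 had 109, 112 and 160 CPM with the plasmid against 95.4 and 73.4 CPM (log2FC 0.59, adjusted p 0.429 by edgeR). Slc7a11 had 7.75, 13.3 and 17.7 CPM against 5.97 and 5.93 CPM (log2FC 1.12, adjusted p 0.485 by edgeR). Only the plasmid groups hold a P19 library in run 2, and it was the highest plasmid control for both genes.

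**Figure D4:**
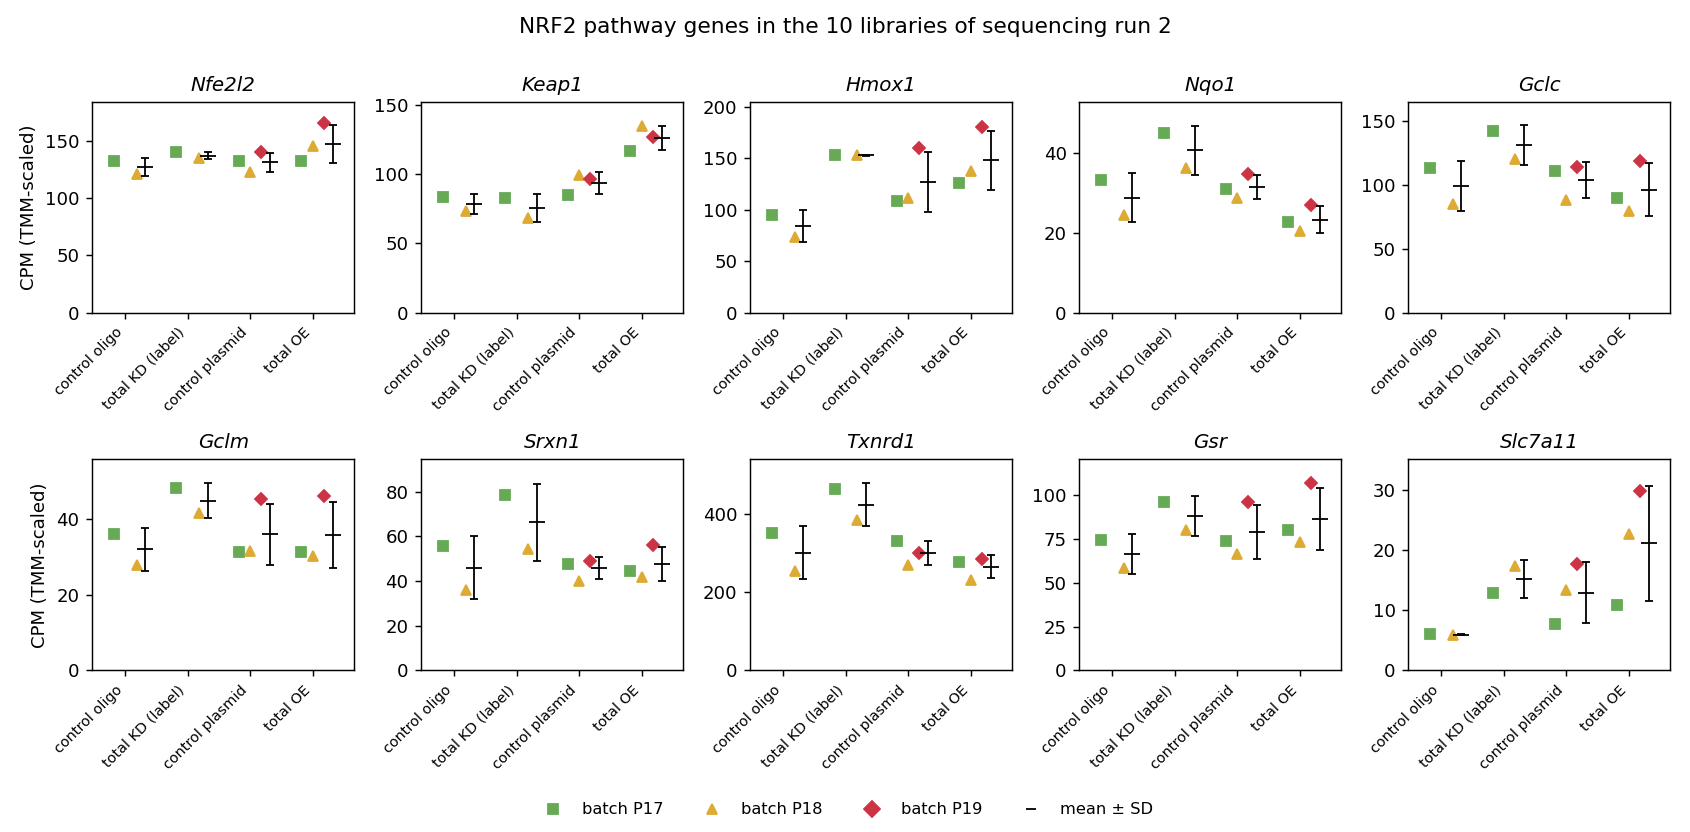
CPM (vertical axes, from 0) of the 10 genes in each library of run 2 by group, with batches as colours and shapes and the mean ± SD of 2 or 3 libraries in black. The libraries labelled total knockdown (KD) lie above both control GapmeR libraries for Hmox1, at 153 against 73.4 and 95.4 CPM, and the overexpression (OE) libraries lie above the plasmid control for Keap1 and below it for Nqo1.

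A batch pattern ran across the groups of run 3, though not alike for every gene. Compared with the mean of P16 to P18 in the same fit, P19 was higher in 9 of the 10 genes and lower in none, where 46.3% of all genes were called, 24.1% higher and 22.2% lower. The median was 0.42 over the 10 genes. This contrast was chosen after the data were seen. Srxn1 was raised 1.67-fold (log2FC 0.74, SE 0.0427, adjusted p 1.59e-12 by edgeR), Nqo1 1.87-fold (0.90, adjusted p 9.76e-08), Slc7a11 1.87-fold (0.90, adjusted p 0.00131) and Hmox1 1.37-fold (0.45, adjusted p 3.32e-05). Gclm (0.43) and Gsr (0.40) followed, and Txnrd1 (0.16), Gclc (0.12) and Nfe2l2 (0.11) had the smallest called rises. Keap1 was not called (0.05, adjusted p 0.326 by edgeR). With PDGF-BB, Slc7a11 in P19 (101 CPM) lay within the 89.9 to 103 CPM of the other batches, and Gclc (247 CPM) below their 279 to 282 CPM. In all 5 groups of run 3, P19 was the highest library for Hmox1, Nqo1, Srxn1 and Gsr. It holds 1 library of each group of run 3, so the groups are balanced over it, and what P19 stands for is not given in the labels. Marker sums moved with the batch too. P19 was the highest library of its group for smooth muscle markers in 5 of 5 groups (811 to 1131 CPM) and for proliferation markers in the 4 groups without PDGF-BB. It was the lowest for fibroblast markers (3036 to 3591 CPM) and endothelial markers (0.356 to 2.29 CPM) in 5 of 5. Epithelial sums were lowest in P19 in the 3 groups without knockdown and highest in the 2 with it. The part of these markers was not tested.

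**Figure D5:**
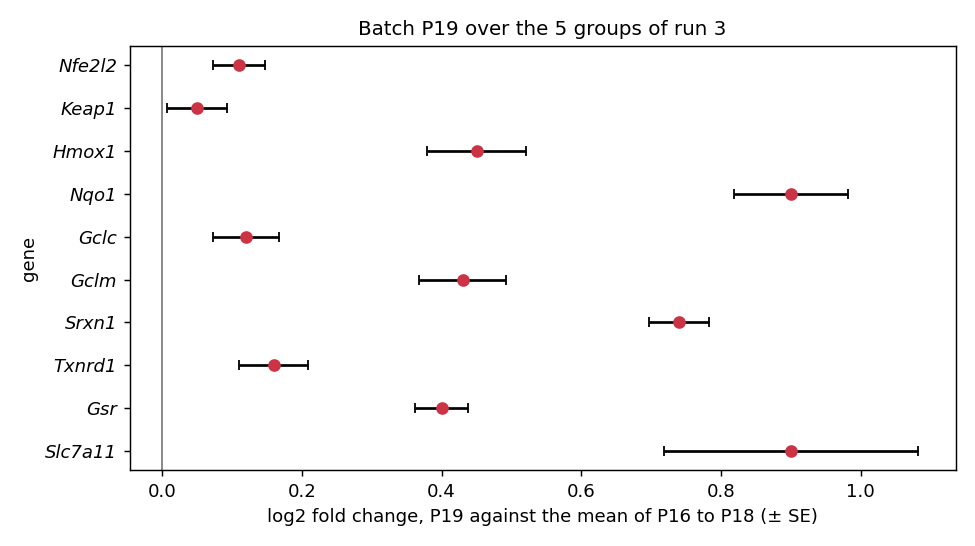
Log2 fold change of batch P19 against the mean of P16 to P18 over the 5 groups of run 3 (horizontal axis, points with SE bars) for the 10 genes (vertical axis). All points lie right of 0, from 0.05 for Keap1 to 0.90 for Nqo1 and Slc7a11.

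The genes most like the 2 widest-ranging members were sought among 9960 genes by the root mean square difference of their 9 group means in log2 CPM, after the mean of each run was subtracted. For Slc7a11 they were Cdt1 (0.118), Kifc5b (0.139) and Fbxo5 (0.151), with log2FC under PDGF-BB of 2.59, 2.78 and 2.62. Kifc5b shares reads with a close copy and is uncertain. For Txnrd1 they were Rflnb (0.0698), Gnai1 (0.115) and Slain2 (0.157), with log2FC in untreated long knockdown of -1.59, -1.44 and -1.24. The 9 means share libraries, controls and scaling, so this likeness is a description.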

How the data were processed

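The authors deposited 1 table of expected counts per gene (estimated reads, not scaled to depth) for all 30 libraries. The submitters' processing notes name STAR 2.7.11b and RSEM 1.3.1 and the builds GRCm39 and mm10, without saying which build the table rests on. No strand setting is given in the sources used here. Of 78334 identifiers 51486 had a symbol, with 98.7% of counts. Libraries were grouped by the library name, because the number after CASC changes between titles of a group. The 10 genes, the 6 other gene lists and the named-gene rule (all 10 genes, and of each list the called gene with the largest rise and the largest fall at a mean CPM of at least 5) were chosen with earlier results of these data known.

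Expected counts were rounded, filtered (filterByExpr, minimum count 10, total 15) and tested per run with edgeR 4.0.16 (TMM, robust quasi-likelihood, all groups in 1 fit, two-sided, Benjamini-Hochberg at 0.05) in R 4.3.3. SE was derived from the F statistic, and intervals are 1.96 SE to each side. The functions were tested on simulated counts. Batch labels pair the libraries: after group means were removed, deviations of libraries of the same batch correlated at a mean of 0.23 in run 2 and 0.197 in run 3 across genes, against -0.121 and -0.0606 for other pairs. Alternatives were the batch as a block, DESeq2 1.42.0, RLE scaling, no filter, a minimum mean CPM of 1, a fit of the compared groups alone, and leaving out each library or all of P19. Replicates varied with a common coefficient of variation of 0.232 (run 2) and 0.148 (run 3).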

Additional observations from a re-analysis of the deposited data

Results flagged for a closer look

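In the 5 groups of 4 libraries, 50 gene and group sets were examined for 1 library far from the other 3, by Dixon's test on the gap between the farthest library and its neighbour. Chance flags about 1 in 20 such groups. Of the 50, 13 were flagged, and in all 13 the library was that of P19.

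In untreated long knockdown, the P19 library was the highest for Hmox1 (61.7 CPM, others 32.2 to 36.2), Srxn1 (56.3, others 28.5 to 31.7), Gsr (71.5, others 50.1 to 53) and Slc7a11 (42, others 11.1 to 15.5). With long knockdown and angiotensin II it was highest for Srxn1 (53.2 CPM, others 29.2 to 33.1) and Slc7a11 (39.2, others 11.8 to 16.3). In control cells with angiotensin II it was highest for Nqo1 (46.8 CPM, others 24.2 to 26.7), Gclm (43.2, others 28 to 29.4), Txnrd1 (490, others 376 to 391) and Gsr (81.8, others 61.6 to 63.7). With PDGF-BB it was highest for Nfe2l2 (213 CPM, others 190 to 194) and Nqo1 (88, others 58.9 to 61.9), and lowest for Gclc (247 CPM, others 279 to 282). The Gclc value was the only 1 of the 13 in which P19 lay below the others.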

How the results depend on the processing

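Over all comparisons and alternatives, 1135 values of single genes kept their sign and their side of the threshold, 41 crossed into a call and 19 lost one. A further 145 changed sign without being called in either setting, 97 of them in the angiotensin II and interaction comparisons, with Slc7a11 in long knockdown reaching 0.59 without the untreated P19 knockdown library. Of the values called in either setting, 0 changed sign. In the libraries labelled total knockdown, the number of the 10 genes called was 2 without the filter, 8 with the replicate block, 1 without P19 libraries, 2 with only the groups compared and 1 with DESeq2, against 0. In overexpression it was 1 without the filter, 3 with the block and 1 with DESeq2, against 0, and for the plasmid control against the GapmeR it was 2 without the filter, against 0. For PDGF-BB, leaving out 1 library gave 4 to 7 genes and the other alternatives 7 to 9, against 7. In untreated long knockdown it was 6 with the block, 7 without P19 libraries and 2 to 5 when 1 library was left out, against 3. Under angiotensin II it was 6 with the block and 6 without P19 libraries, and 2 to 3 when 1 library was left out, against 3. In the libraries labelled total knockdown, each setting that called more of the 10 also called more of all genes, such as 2209 with the block against 317. The same held in overexpression, with 2721 against 253. The shifts in both are therefore not read as particular to the 10 genes. For the other comparisons, shares of all genes are given above for the block only, so the remaining counts are not set against them. The cause of the shifts was not tested. Txnrd1 was called in 15 of 15 alternatives of each long knockdown comparison. Among the 10 genes the block changed no call other than those given, and in the other gene lists it changed calls as well. With 2 libraries per group in run 2, leaving 1 out leaves a lone library, which is assumed to vary like the other groups.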
